A study of Drosophila melanogaster with 2 samples.

Results

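Of the 30000 regions in the list pooled from both replicates, 729 (2.43%) had their summit, the base of highest signal, inside an annotated transposable element. They were chosen by position alone. A region was a member when its summit fell inside a gene that Ensembl release 115 types as a transposable element on the dm6 assembly of Drosophila melanogaster. Ensembl places 5809 such elements on chromosomes 2L, 2R, 3L, 3R, 4 and X, and 599 of them held at least 1 member. The assay was ChIP-seq of whole embryos aged 0 to 14 hours, with both sexes pooled, for the protein ADD1, also called CG8290. Every embryo came from a transgenic D. melanogaster line that stably makes CG8290 fused to GFP at its C-terminal end, so the 2 biological replicates, numbered 2 and 3, form 1 group with no other genotype or treatment. The promoter of the transgene is not given in the sources used here, nor whether the replicates came from separate cages. The labels disagree about what the libraries are, since a free-text description names an input control whereas the antibody entry is CG8290. No input or GFP-only library was analysed here.

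Transposable elements are mobile DNA sequences that make up much of the heterochromatin around fly centromeres and of chromosome 4. Retrotransposons copy themselves through RNA, either with long terminal repeats (LTR) or without them (non-LTR), while terminal inverted repeat (TIR) transposons, Helitrons and foldback elements move as DNA. In flies, heterochromatin protein 1 coats most of these sequences, and ADD1 is known as one of its partners.

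The sequences around 4 of the 5 strongest summits are given because they show how these summits sit in element copies, INE-1 and diver2 as short fragments and hoppel inside a longer copy. They were read from the RefSeq sequence of the dm6 assembly on the plus strand, 300 bases each around the summit, with bases of the named element in capitals. INE-1{}4982 is a 231 bp Helitron on 2L, printed over chr2L:4030462-4030761. FBti0059678 is a 2897 bp copy of the TIR transposon hoppel on chromosome 4, printed over chr4:181693-181992. diver2{}4384 is a 489 bp LTR fragment on 3L, printed over chr3L:23092699-23092998. INE-1{}5485 is a 239 bp Helitron on chromosome 4, printed over chr4:1148054-1148353.
INE-1{}4982: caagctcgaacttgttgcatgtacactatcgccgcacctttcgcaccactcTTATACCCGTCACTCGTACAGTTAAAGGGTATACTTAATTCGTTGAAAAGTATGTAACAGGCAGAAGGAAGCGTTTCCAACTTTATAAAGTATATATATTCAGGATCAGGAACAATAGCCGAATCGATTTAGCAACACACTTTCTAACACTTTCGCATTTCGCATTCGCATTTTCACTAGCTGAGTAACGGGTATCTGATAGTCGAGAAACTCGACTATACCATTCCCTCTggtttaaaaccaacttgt
hoppel FBti0059678: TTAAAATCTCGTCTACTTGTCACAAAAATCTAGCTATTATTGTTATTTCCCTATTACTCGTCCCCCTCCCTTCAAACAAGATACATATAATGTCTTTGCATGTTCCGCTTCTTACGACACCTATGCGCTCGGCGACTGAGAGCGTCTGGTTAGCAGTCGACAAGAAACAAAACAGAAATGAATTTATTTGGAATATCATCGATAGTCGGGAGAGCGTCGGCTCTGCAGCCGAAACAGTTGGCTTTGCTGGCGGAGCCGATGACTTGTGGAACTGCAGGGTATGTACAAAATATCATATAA
diver2{}4384: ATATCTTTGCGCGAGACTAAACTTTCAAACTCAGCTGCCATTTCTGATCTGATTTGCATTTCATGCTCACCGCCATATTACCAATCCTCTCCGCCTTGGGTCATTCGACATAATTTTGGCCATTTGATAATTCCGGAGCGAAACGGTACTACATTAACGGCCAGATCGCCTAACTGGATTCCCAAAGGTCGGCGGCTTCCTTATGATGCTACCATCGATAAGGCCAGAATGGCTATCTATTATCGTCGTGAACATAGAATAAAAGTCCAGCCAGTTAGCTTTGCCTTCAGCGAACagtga
INE-1{}5485: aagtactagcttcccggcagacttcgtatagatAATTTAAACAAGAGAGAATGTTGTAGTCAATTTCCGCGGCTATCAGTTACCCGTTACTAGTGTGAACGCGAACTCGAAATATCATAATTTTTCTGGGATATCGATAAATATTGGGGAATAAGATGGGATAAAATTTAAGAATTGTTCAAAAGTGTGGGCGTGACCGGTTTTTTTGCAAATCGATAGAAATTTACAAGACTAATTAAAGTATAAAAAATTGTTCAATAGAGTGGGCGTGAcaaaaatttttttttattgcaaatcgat
The capitals span 231, 300, 295 and 239 bases in that order. Every stretch of 50 bases centred on a base of these 4 regions occurred once in the assembly, so that a read of that length would match 1 place.

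The deposited lists hold 30000 regions for each replicate, 30000 for the pooled data and, as optimal peaks, those that passed a threshold on the irreproducible discovery rate (IDR). Every optimal peak was found in the pooled list, where these peaks are the regions of highest signal and make up 8.26%. The lists include background regions on purpose, so an entry in a 30000-region list is not in itself a called peak. Signal is a number the authors' caller gave each region, its scale not stated, and serves here to order regions within a list, with position 1 the strongest. Read depth is unknown. All 95% intervals are exact (Clopper-Pearson), cover the counting of regions only, and describe lists rather than replicates.

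Regions inside elements rarely reached the optimal list, and their median signal was lower than that of other regions over the whole genome but not in pericentric sequence. There were 2 optimal peaks among the 729 members (0.274%, 95% interval 0.0332 to 0.987%), against 8.26% of all pooled regions. Among the strongest 6000 regions, 20% of the pooled list by construction, stood 36 members (4.94%, 3.48 to 6.77%). The median position was 17666 for the members and 14909 for the 29271 regions outside elements, and the median signal was 45.0 for the members and 49.6 outside. By zone, the median positions were 16161 inside elements and 14510 outside on the arms, 18400 inside and 18528.5 outside in pericentric sequence, and 17156 inside and 12715.5 outside on chromosome 4. More than 500 bp from a gene start, the genome-wide medians were 18049 inside and 17066.5 outside. By zone they were then 16161 and 16861 on the arms, 18444 and 19077 in pericentric sequence, and 17413 and 14295 on chromosome 4. The lower arm position inside elements was thus seen only with start sites included. In pericentric sequence the median signal was 43.9 inside and 43.8 outside. Pericentric regions more than 500 bp from a gene start were optimal in 0.249% of 401 members and 0.543% of 2392 regions outside elements, with intervals of 0.00631 to 1.38% and 0.290 to 0.928% that overlapped, and 2.49% and 4.35% of them stood among the strongest 6000. Low shares of strong regions were thus also seen in the surrounding pericentric sequence. A deposited q-value of at most 0.05 was held by 44 members (6.04%, 4.42 to 8.02%), against 21.7% of all pooled regions. In steps of 3000 positions from the strongest down, the members numbered 4, 32, 66, 84, 92, 93, 97, 77, 84 and 100. The members were therefore thin at the top of the order and nearly evenly spread below position 9000.

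**Figure D1:**
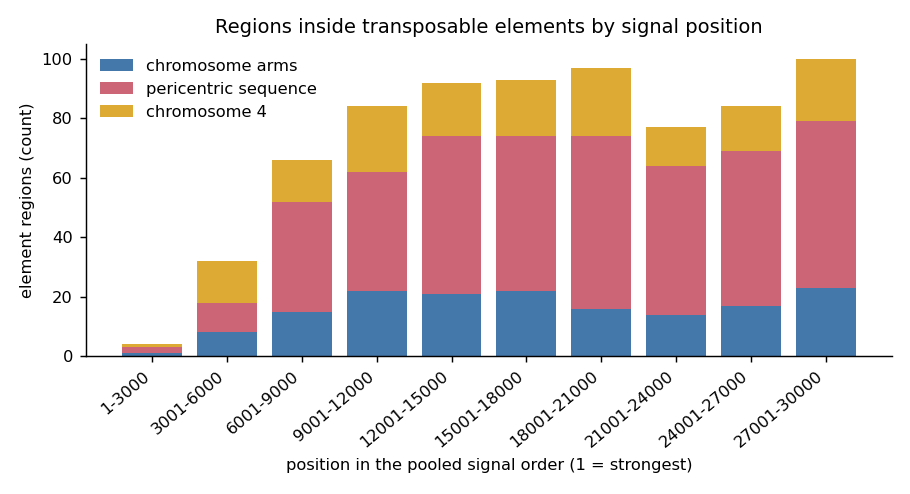
Number of pooled regions with the summit inside a transposable element (vertical axis) in each step of 3000 positions of the pooled signal order (horizontal axis, strongest at the left), stacked by chromosome arms, pericentric sequence and chromosome 4. The strongest step holds 4 element regions and the weakest holds 100.

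The 2 optimal members were short fragments away from gene starts. INE-1{}4982 (2L, 4030513 to 4030743) had a signal of 246 and position 630 in the pooled list. The best overlapping region had a signal of 128 at position 606 in replicate 2 and of 114 at position 834 in replicate 3, so both replicates placed it high. Its summit lay 98 bp from the nearer end of the element and 766 bp from the start of ed, the gene of the cell adhesion protein Echinoid. diver2{}3047 (2R, 5129603 to 5129874) is a 272 bp piece of an LTR retrotransposon with a pooled signal of 170 at position 1484. The best overlapping region was at position 998 in replicate 2, with its summit outside annotated elements, and at 2714 in replicate 3. The replicate 2 region with its summit inside diver2{}3047 stood at position 2210. The pooled summit lay 1240 bp from the start of lncRNA:CR43256. On chromosome 4, 0 of 160 members were optimal, which allows a share of up to 2.28% by the exact interval, and 46 of the 646 other regions there (7.12%) were. More than 500 bp from a gene start, 0 of 153 members there were optimal, with an interval up to 2.38%. Of the other regions away from starts, 12 of 505 were (2.38%, 1.23 to 4.11%), so these intervals overlapped.

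Most members lay near centromeres or on chromosome 4. Pericentric sequence, taken as 2L from 22 Mb, 2R up to 5.6 Mb, 3L from 23 Mb, 3R up to 4.2 Mb and X from 22 Mb, held 410 members (56.2%), chromosome 4 held 160 (21.9%), and the remaining chromosome arms held 159 (21.8%). Members made up 13.5% of the 3032 pericentric regions, 19.9% of the 806 regions on chromosome 4 and 0.608% of the 26162 arm regions. Annotated elements cover 16.4%, 24.8% and 4.07% of the length of these 3 kinds of sequence in the same order. By chromosome, 2R had 261 members, chromosome 4 had 160, 3L had 156, 2L had 90, X had 37 and 3R had 25. The strongest member stood at position 630 on 2L, 1484 on 2R, 2885 on chromosome 4, 2909 on 3L, 4396 on X and 4465 on 3R. The last pair were gypsy12{}5668, an LTR fragment 1797 bp from the start of RpS10b on X, and INE-1{}5101 on 3R.

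Per Mb of sequence, regions were sparser inside elements than outside in all 3 zones. There were 34.1 regions per Mb inside elements and 237 outside on the arms, 139 inside and 175 outside in pericentric sequence, and 479 inside and 637 outside on chromosome 4. Element sequence is also more repetitive. A base was called single-copy here when the 50 bases centred on it occur once in the assembly, on either strand. By that measure 25.7% of element bases were single-copy, against 92.4% of bases outside elements. The shares were 15.6% inside elements and 98.4% outside on the arms, 37.9% inside and 47.9% outside in pericentric sequence, and 57.6% inside and 94.8% outside on chromosome 4. Almost all members sat in single-copy sequence, with 703 of 729 summits (96.4%) single-copy and 417 regions (57.2%) single-copy throughout, against 28139 regions (96.1%) outside elements.

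Set against single-copy sequence, the ratio of inside to outside over whole zones lay between 0.910 and 1.24 in the full pooled list. All regions were divided by the Mb of single-copy sequence of their kind. On the chromosome arms this gave 219 regions per Mb inside elements and 240 outside, a ratio of 0.910, with 0.941 in replicate 2 and 0.900 in replicate 3. In pericentric sequence it gave 367 inside and 364 outside, a ratio of 1.01, with 0.982 in replicate 2 and 1.11 in replicate 3, so the replicates fell on both sides of equality. On chromosome 4 it gave 831 inside and 672 outside, a ratio of 1.24, with 1.13 in replicate 2 and 1.08 in replicate 3. Away from gene starts by more than 500 bp, the ratios were 1.08 on the arms, 1.06 in pericentric sequence and 1.37 on chromosome 4. The arm ratio thus changed side of 1 with the removal of start sites. Arm members were also not evenly spread. Of the 159 arm members, 89 lay in the 1 Mb of each arm next to pericentric sequence and 14 in the next 1 Mb. With start sites included, the ratios in these steps were 0.642 and 0.697, both below the 0.910 of the whole arms. Arm sequence farther out was not taken separately, so the whole-arm ratio does not describe every distance.

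Among the strongest 6000 regions, the density per single-copy Mb was lower inside elements than outside in all 3 zones. There were 12.4 regions per Mb inside elements and 52.4 outside on the arms, 10.7 inside and 24.3 outside in pericentric sequence, and 77.9 inside and 123 outside on chromosome 4. The 3 ratios were 0.236, 0.442 and 0.635 in the pooled list, from 9, 12 and 15 members, 0.409, 0.779 and 0.691 in replicate 2, and 0.182, 0.623 and 0.466 in replicate 3. With regions and sequence near gene starts left out, the pooled ratios were 0.384, 0.607 and 1.15, from 7, 10 and 14 members, so that on chromosome 4 the lower density inside elements was seen only with start sites included.

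**Figure D2:**
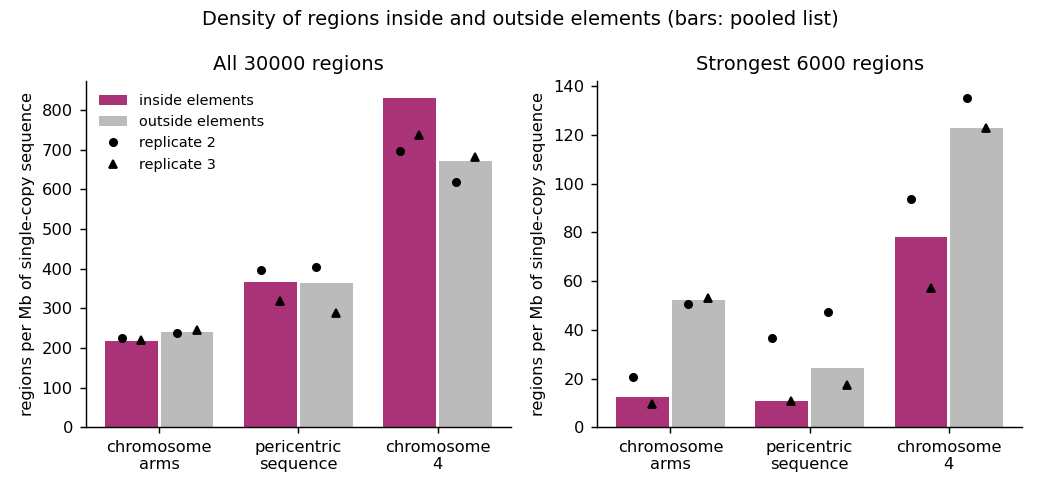
Regions per Mb of single-copy sequence (vertical axes) inside elements, left bar of each pair, and outside elements, right bar, by zone, for all 30000 regions (left panel) and the strongest 6000 (right panel). Bars give the pooled list, and the circle and triangle give replicates 2 and 3. On the arms the strongest regions stand at 12.4 inside and 52.4 outside.

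Pericentric members were packed against the boundary with the arms. Of 410 members, 368 (89.8%) lay within 1 Mb of it and 399 (97.3%) within 1.5 Mb. The annotation itself thins out at the same place. Elements cover 36.1% of the first 0.5 Mb, 30.9% of the next 0.5 Mb and 14.6% of the 0.5 Mb after that, but 8.71% of the 10.5 Mb that lie deeper, where 11 members and 1170 regions outside elements were found. Whether deep sequence counted as outside elements holds copies that the annotation lacks was not tested. In each of 6 steps from the boundary towards the centromere, the density per single-copy Mb was lower inside elements than outside. In the first 0.5 Mb it was 465 inside and 602 outside, in the next 0.5 Mb 318 inside and 403 outside, and from 1 to 1.5 Mb 365 inside and 367 outside. Over the whole 1.5 Mb next to the boundary the ratio was 0.883, below the 1.01 of all pericentric sequence, and deeper it was 0.324.

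**Figure D3:**
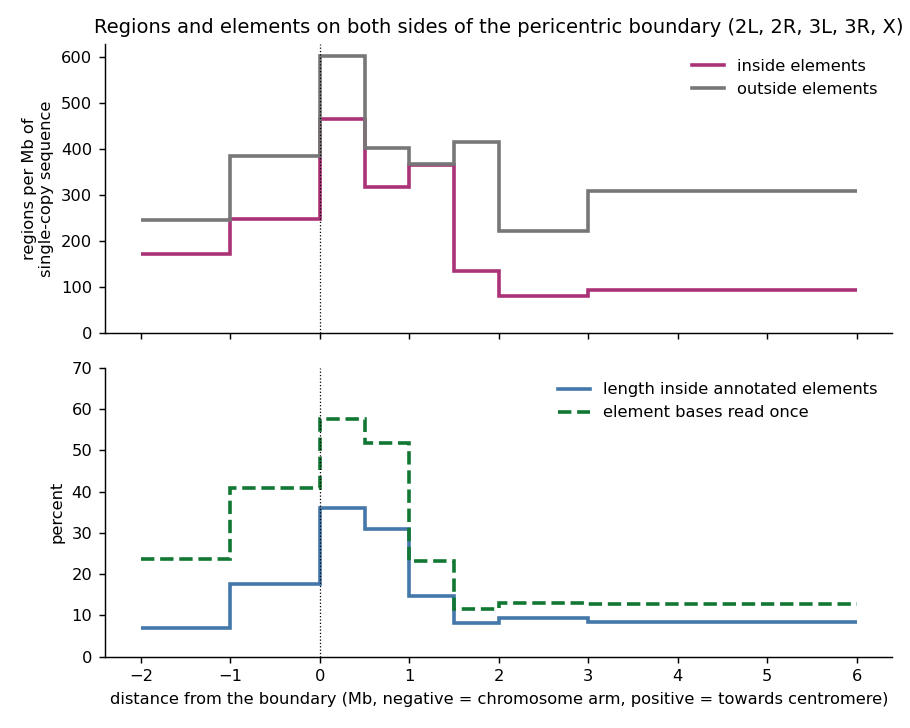
Top, regions per Mb of single-copy sequence inside and outside elements; bottom, the share of length inside annotated elements and the share of element bases that are single-copy. The horizontal axis is the distance in Mb from the pericentric boundary of 2L, 2R, 3L, 3R and X, negative on the arm side. Both shares are highest in the first 0.5 Mb, at 36.1% and 57.5%, and the inside line stays under the outside line in every step.

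By class of element, Helitrons held the most regions per length and LTR retrotransposons the fewest of the 4 large classes. The median copy was 146 bp long for Helitrons, 956.5 bp for TIR transposons, 916 bp for non-LTR and 1905 bp for LTR retrotransposons. Helitrons held 225 members (30.9%), all in INE-1 copies, in 6.07% of the summed element length, or 40.9 per 100 kb. TIR transposons held 118 members (16.2%) in 9.68% of the length, non-LTR retrotransposons 194 (26.6%) in 23.3%, and LTR retrotransposons 182 (24.97%) in 58.5%. Their densities were 13.5, 9.17 and 3.43 members per 100 kb. Foldback elements held 8 members, or 12.5 per 100 kb, and unclassified families 2. The single-copy share of these 4 classes followed the same order, at 90.7% for Helitrons, 44.4% for TIR, 30.7% for non-LTR and 14.5% for LTR elements. Per 100 kb of single-copy sequence the densities were 45.0 in Helitrons, 30.3 in TIR, 29.9 in non-LTR and 23.7 in LTR elements, with 33.0 in foldback elements from their 8 members, so the range between these 4 classes narrowed and TIR and non-LTR elements lay close together. These class values pool families and zones. Among families with 10 or more members, the same density ran from 22.2 in HB to 59.5 in Rt1c, with 45.1 in INE-1. The strongest members of each class were INE-1{}4982, the hoppel copy FBti0059678, Cr1a{}5031, diver2{}3047, FB{}1604 and, among unclassified elements, Y{}6300 at position 19957.

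Members came from 97 of the 155 annotated families, and 12 families had 10 or more. INE-1, an old and abundant Helitron that no longer moves, had 225 members in 213 of its 2235 copies. hoppel, a TIR transposon related to the P element that the annotation names by a number, had 63 in 50 of 436 copies, the strongest being FBti0059678. Cr1a, a non-LTR retrotransposon, had 51 in 36 of 152 copies, led by Cr1a{}5031. The LTR families gypsy12 and gypsy8 had 22 each, in 15 of 51 and 19 of 56 copies, led by gypsy12{}5668 at position 4396 and gypsy8{}2910 at 3905. In the remaining families on this list the strongest member stood between positions 3736 and 11048. Rt1b had 19 members in 60 copies with its strongest, Rt1b{}2769, at position 10547. F had 15 in 86 copies, led by F{}4636 at 8071, and 297 had 12 in 89 copies, led by 297{}4620 at 11048. Rt1c had 12 in 33 copies, led by Rt1c{}5067 at 6963, and HB had 10 in 61 copies, led by HB{}1548 at 9820. G5 and X had 10 each, in 25 and 58 copies, led by G5{}3374 at 3736 and X{}4054 at 6455.

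Several families of long elements were nearly empty, and only a small share of their sequence was single-copy. roo, an LTR retrotransposon with 144 copies over 1081 kb, had 2 members and a single-copy share of 5.14%. Because roo is so long, that share still came to 55.6 kb. Its density there was 3.60 members per 100 kb of single-copy sequence, against 23.7 in LTR elements as a class. The cause of this low density in roo was not tested. copia, also LTR, had 1 member in 39 copies with a share of 3.36%. Doc, a non-LTR retrotransposon, had 0 in 80 copies with a share of 4.56%, and the LTR families 412 and blood had 0 in 44 and 28 copies with shares of 3.15% and 2.54%. jockey had 9 members in 96 copies, gypsy 7 in 22, mdg1 7 in 44 and the I element 3 in 38. Of the elements that maintain fly telomeres, HeT-A had 1 member in 27 copies, at position 18049, and its summit was not single-copy. TART-A, TART-B and TART-C had none in 10, 3 and 1 copies. Of the elements that insert into ribosomal DNA, R1A1 had 2 members in 31 copies and R2 had none in its 1 copy. TAHRE and the P element are not among the annotated families used here. Where a family has little single-copy sequence, absence of regions was not distinguishable from absence of placeable reads.

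**Figure D4:**
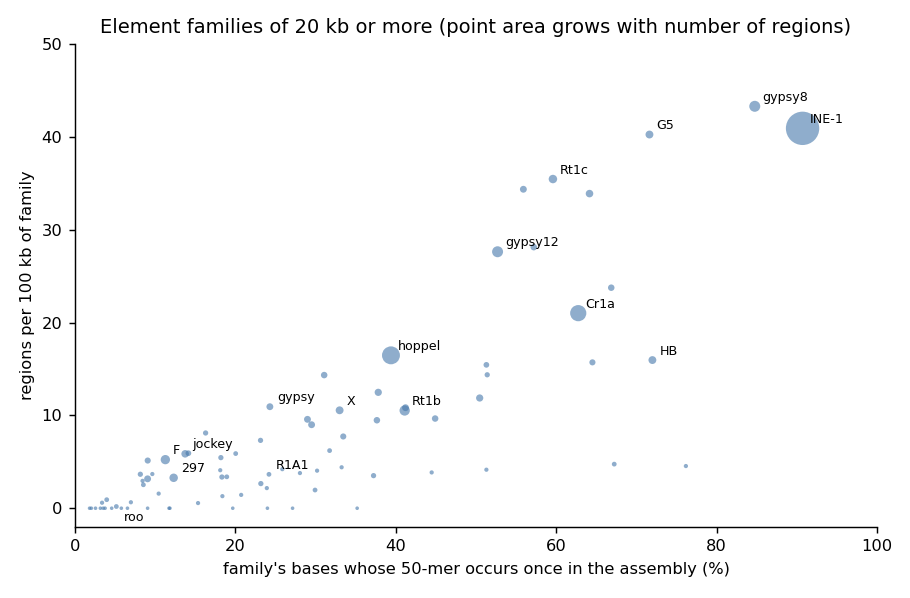
Members per 100 kb of a family (vertical axis) against the share of the family's bases that are single-copy (horizontal axis, percent), for the 82 families of 20 kb or more. Each point is a family and its area grows with the number of members. INE-1 stands at 90.7% and 40.9 per 100 kb, and roo at 5.14% and 0.185.

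The share of copies with a member differed by zone, for all elements as for INE-1. Over all elements it was 4.81% of 3036 on the arms, 14.9% of 2207 in pericentric sequence and 22.1% of 566 on chromosome 4. INE-1 copies held a member in 4.50% of 1334 arm copies (95% interval 3.45 to 5.75%), 13.6% of 557 pericentric copies (10.9 to 16.8%) and 22.4% of 344 copies on chromosome 4 (18.1 to 27.2%), and the 3 intervals did not overlap. The median copy was 122 bp long on the arms, 206 bp in pericentric sequence and 178 bp on chromosome 4. Per 100 kb of single-copy INE-1 sequence there were 25.9, 49.2 and 91.4 members in that order, and their median positions were 15949, 16660 and 15863. Copies of hoppel held a member in 9.92% of 121 arm copies, 8.63% of 255 pericentric copies and 26.7% of 60 copies on chromosome 4, with intervals of 5.23 to 16.7%, 5.49 to 12.8% and 16.1 to 39.7%. Per 100 kb of its single-copy sequence hoppel had 39.4, 28.7 and 97.0 members. INE-1 was thus below hoppel on the arms and on chromosome 4, and above it in pericentric sequence. There gypsy12 had 58.1, gypsy8 50.2 and Cr1a 32.6, from 16, 21 and 36 members. Cr1a copies held one in 13.3% of 30, 25.7% of 105 and 29.4% of 17 copies, and these 3 intervals overlapped. Copies of 1 family share sequence and are not replicates.

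Shares also differed by element length. A member was found in 2.13% of 1172 elements of up to 100 bp, 6.87% of 888 of up to 200 bp, 12.1% of 1331 of up to 500 bp and 21.6% of 523 of up to 1000 bp. Beyond that the share was 18.2% of 694 elements of up to 2000 bp, 14.2% of 506 of up to 5000 bp and 5.90% of the 695 longer ones. Longer elements offer more bases for a summit. Per 100 kb of element length the members numbered 35.3, 47.9, 38.2 and 35.6 in the classes up to 1000 bp. In the longer classes they numbered 16.8, 6.87 and 1.18. Of the elements longer than 5000 bp, the 41 with a member had a median single-copy share of 55.2%, against 2.38% for the 654 without one. Single members were the rule, with 501 elements holding 1, 73 holding 2 and 25 holding 3 or more. gypsy7{}4597, a 4558 bp LTR element on chromosome 4 (1156958 to 1161515) within the genes CG32017 and Kif3C, held 6, at positions from 8959 to 27454, and Burdock{}4045 nested inside it held 3 more.

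Most of the strongest members were INE-1 and hoppel copies, and their order differed between the replicates. Of the 36 members among the strongest 6000, 16 were INE-1, 7 were hoppel and 3 were Cr1a, and 35 met a region in both replicate lists. Over these 35 the median position was 3921 in replicate 2 and 4402 in replicate 3, the last positions were 12044 and 15674, and the positions had a Spearman correlation of 0.053, given as a description of points chosen for their pooled signal. They lay on chromosome 4 (15), in pericentric sequence (12) and on the arms (9), and 31 of the regions were single-copy throughout. Those on chromosome 4 included the hoppel copy FBti0059678 with a pooled signal of 123 and positions 2888 and 3281 in replicates 2 and 3, whose summit lay 3 bp from the start of lncRNA:CR46488. INE-1{}5485, within the kinesin gene Kif3C, had a pooled signal of 119.8 and positions 2807 and 4526 in replicates 2 and 3. INE-1{}5315 lay 782 bp from the start of Ank, the gene of ankyrin, and had a pooled signal of 117 and positions 3220 and 2241 in replicates 2 and 3. INE-1{}3976 lay in Cadps, a gene of vesicle release, and had a pooled signal of 116 and positions 7661 and 2155 in replicates 2 and 3, so it stood higher in the order of replicate 3. The hoppel copy FBti0020438 had a pooled signal of 113 with positions 3606 and 3538, and FBti0062808 had 108 with positions 3921 and 2883. These values for FBti0062808 are of its member at pooled position 3682, and it held another at 4857.

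Off chromosome 4, the strongest members lay in pericentric sequence (12) or on the arms (9). diver2{}4384 on 3L, 2623 bp from the start of the ribosomal protein gene RpL10, had a pooled signal of 122 and positions 3224 and 2844 in replicates 2 and 3. INE-1{}2912 had a pooled signal of 118 with positions 3245 and 2938, and lay 279 bp from the start of lncRNA:CR43256. roo{}850, an 8922 bp copy of roo inside grh, the gene of the epidermal transcription factor Grainyhead, had a pooled signal of 116 with positions 4525 and 2910. Its summit lay 3637 bp inside the element, yet its region was single-copy throughout. Cr1a{}5031 had a pooled signal of 111 with positions 2358 and 7511, and G5{}3374 had 107 with positions 3498 and 8178, so both stood higher in the order of replicate 2. INE-1{}2485 in the gene d4 had a pooled signal of 105 with positions 3674 and 1967, and gypsy8{}2910 had 104 with positions 2581 and 7195. FB{}1604, an 8160 bp foldback element on 3L whose summit lay 65 bp from the start of SPoCk, had a pooled signal of 90.6 with positions 12044 and 4263.

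Members were spread along elements and were rarely at gene starts. With each element divided into 3 equal parts from its 5′ end, the parts held 275, 206 and 248 summits. The summit was a median of 148 bp from the nearer end, in elements with a median length of 878 bp, and a median of 94.4% of the 444 bp region lay in elements, with 314 regions entirely inside. A gene start lay within 500 bp of 38 members (5.21%), against 30.9% of regions outside elements. Little single-copy element sequence is that close to a start. On the arms 0.664 of its 0.727 Mb lay farther away, in pericentric sequence 1.10 of 1.12 Mb and on chromosome 4 0.184 of 0.192 Mb. These 38 had a median position of 12789, against 18049 for the 691 away from starts. In exons of other genes lay 31 members (4.25%), in introns 348 (47.7%) and between genes 350 (48.0%), and the element bases themselves are 1.40% exonic, 48.0% intronic and 50.6% between genes. Outside elements, 24.2% of regions were exonic. On chromosome 4, 111 of 160 members (69.4%, 61.6 to 76.4%) were intronic, against 211 of 646 other regions (32.7%, 29.1 to 36.4%), where 52.2% of element bases are intronic. On the arms the order was the other way, with 57 of 159 members (35.8%, 28.4 to 43.8%) intronic, against 45.8% of other regions, where 54.1% of element bases are intronic. In pericentric sequence 43.9% of members and 44.6% of other regions were intronic.

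Optimal peaks that touched an element usually had their summit beside it. Of the optimal peaks, 30 overlapped an element by at least 1 bp, 2 with the summit inside and 28 with it outside, at 3 to 217 bp and a median of 104 bp from the element. Among all 1340 pooled regions that overlapped an element by at least 1 bp, 729 had the summit inside. Of the 30, 13 touched an INE-1 copy, a family that makes up 38.5% of annotated copies. A gene start was within 500 bp of 18 of the 30. For comparison, 1434 of the 2476 optimal peaks with the summit outside elements lay at a gene start. The nearest of the 28 lay beside F{}5843, a non-LTR copy on 3L, with its summit 3 bp outside. It had a pooled signal of 161 at position 1678. In both replicate lists the corresponding summit fell inside F{}5843, at position 1534 in replicate 2 and 2290 in replicate 3. Its membership turned on 3 bp.

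The summits of INE-1 members often had the letters ATCGATA nearby. Windows of 201 bp around summits were searched on both strands. ATCGATA occurred in 12.5% of members and in 5.52% of regions outside elements, and TATCGATA, the palindromic DNA replication-related element bound by DREF, which contains it, in 4.801% of members and 2.23% outside. INE-1 carried the difference, with ATCGATA in 70 of 225 INE-1 members (31.1%, 25.1 to 37.6%) and in 21 of 504 members of other families (4.17%, 2.60 to 6.30%). INE-1 copies without a member carried the letters at a rate whose interval overlapped. Among INE-1 copies of 200 to 500 bp they occurred in 52.5% of the 99 with a member (42.2 to 62.7%) and in 45.6% of the 620 without (41.7 to 49.7%). Among the strongest 36 members 12 windows (33.3%, 18.6 to 51.0%) held ATCGATA, against 10.04% of the 5964 strongest regions outside elements. INE-1 made up 16 of these 36 members, and the 12 windows were not split by family. A link of the letters with signal apart from family was thus not tested. Of the sequences printed above, INE-1{}5485 held it at 2 sites, one of which is TATCGATA and reads ATCGATA on both strands, the hoppel copy FBti0059678 and diver2{}4384 1 time each and INE-1{}4982 not at all. The shorter CGATA, a core recognised by the insulator protein BEAF-32 that overlaps both, was in 29.9% of members and 25.5% outside. GAGAGAG, of GAGA factor, was in 4.39% and 5.43%, and CAGGTAG, of Zelda, in 1.78% and 1.24%, members given before regions outside elements.

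The 2 replicates gave similar totals and shared fewer than 1 in 2 of the elements hit. Replicate 2 had 741 regions with the summit inside an element and replicate 3 had 660, a mean of 700.5 ± 57.3 (SD, n = 2). Their median positions were 16375 and 18593, and 74 and 30 of them stood among the strongest 6000 of their own list. Pericentric shares were 59.9% and 54.1%. Of the elements hit, 272 were hit in both, which is 44.3% of the 614 in replicate 2 and 48.3% of the 563 in replicate 3. Of the pooled members, 577 (79.1%) overlapped a region of replicate 2, 542 (74.3%) one of replicate 3, 414 (56.8%, 53.1 to 60.4%) both and 24 neither. The background for both is 60.3% of all pooled regions. By zone the share met in both was 57.2% inside elements and 60.8% outside on the arms. It was 54.1% inside and 54.3% outside in pericentric sequence, and 63.1% inside and 69.0% outside on chromosome 4. The replicates fed the pooled list, so this overlap is not an independent check. Over the 414 members met in both, the positions in replicates 2 and 3 had a Spearman correlation of 0.33, and over 17677 such regions outside elements of 0.65, given as a description of points that share libraries and span different ranges of signal.

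**Figure D5:**
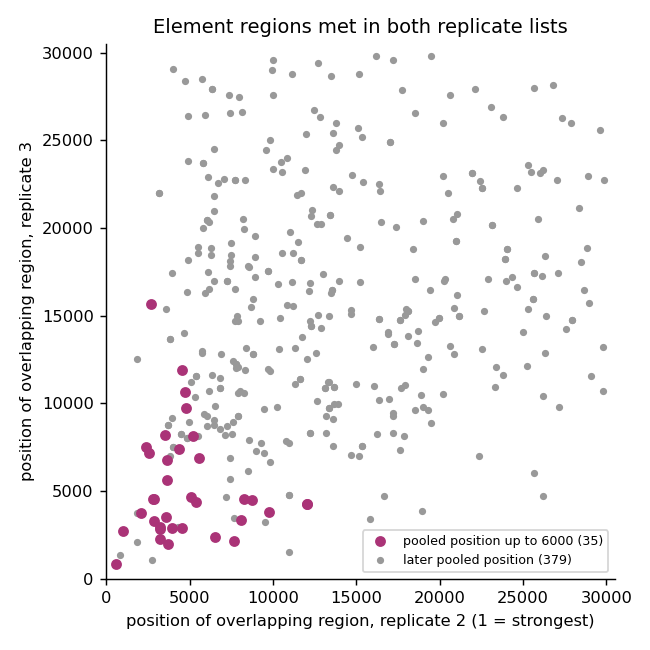
Position in the signal order of replicate 2 (horizontal axis) and replicate 3 (vertical axis) of the best region overlapping each of the 414 members met in both replicate lists, 1 being the strongest. Coloured points are the 35 members among the strongest 6000 pooled regions, which crowd towards the lower left, and grey points are the 379 later ones.

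Among as many regions as the optimal list holds, replicate 2 had 7 summits inside elements and replicate 3 had 4. In replicate 2 they were INE-1{}4982, the hoppel copy FBti0062779, F{}5843, Dm88{}3766, INE-1{}4284, diver2{}3047 and Cr1a{}5031, at positions 606 to 2358. In replicate 3 they were INE-1{}4982, INE-1{}3976, F{}5843 and the hoppel copy FBti0062808, at positions 834 to 2397. INE-1{}4982 and F{}5843 were in both. The replicate 3 region in FBti0062808, at position 2397, met the member of that copy at pooled position 4857, not the one at 3682. FBti0062779, a 33 bp fragment on 2L, is the replicate 2 counterpart of an optimal peak whose pooled summit lay 125 bp outside it and 170 bp from the start of RtGEF.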

How the data were processed

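The authors deposited regions in the narrowPeak layout on dm6. Per the deposited text, the lists are peaks and background prepared for IDR, made per replicate and on pooled data, plus optimal IDR-thresholded peaks. The IDR cutoff, aligner and peak caller: not given in the sources used here. Per the deposited text, the lists for IDR also derive from 1 file common to them, whose role was not stated. Signal, as deposited, is a score per region on an unstated scale, and the deposited −log10 of the q-value reached 3.53 for 1690 pooled regions. Both were used only within a list; between replicates, positions in the order were set side by side.

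Summits were placed in Ensembl release 115 elements, the shortest element taking a summit in nested copies (87 members). Families were sorted into classes by a table written by hand. Single-copy bases came from counting 50-mers in the RefSeq assembly, on both strands. Gene starts are those of all genes other than elements, with a window of 500 bp. Placement and counting were tested on simulated data. Python 3.11.15, numpy 2.4.6, pandas 2.3.3, scipy 1.17.1 and matplotlib 3.10.9 were used.

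With 1 group and no control library, no test between groups was made. Shares are given with 95% exact intervals beside those of other regions, and replicates as mean ± SD. Members and lists were chosen with earlier results of these data known. Elements named are optimal members, the 15 strongest, the strongest of each chromosome and class, the element with most members, families with 10 or more members and a list of telomeric, ribosomal and common families, and the elements beside optimal peaks or high in 1 replicate, which were chosen after their values were seen. Alternatives were other overlap rules, minimum lengths, boundaries, list sizes and single replicates. The density comparisons and their alternatives were added after seeing the data.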

Additional observations from a re-analysis of the deposited data

How the results depend on the processing

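Of 85 alternative values, 48 moved by less than the spread between replicates, or for counts by less than 1.5 times, and 37 moved by more. In the single replicates, element regions numbered 4 to 7 among as many of the strongest as the optimal list has, against 2 in the pooled list, and 30 to 74 among the strongest 6000. Counting any overlap of 1 bp gave 1340 regions, 30 of them optimal and 120 among the strongest 6000, in 1115 elements, with 47.1% pericentric and 20.8% in LTR elements. Elements of 500 bp or longer gave 482 regions, 0 optimal and 17 among the strongest 6000, in 358 elements, with 65.4% pericentric, 29.9% LTR and 51.9% met in both replicates. Summits at least 50 bp inside gave 28.0% LTR. Halving the optimal list by signal left 1 member, and doubling it down the pooled order gave 24. Pericentric shares were 68.4% with boundaries 1 Mb into the arms and 5.76% with boundaries 1 Mb towards the centromeres, since 368 of 410 members lie in that 1 Mb. The share met in both replicates was 28.7% for summits within 100 bp and 21.1% for the strongest 15000 of each. Taking 1 region per interval changed none of the values, as all 729 intervals are distinct. Density ratios of elements to other sequence on the arms were 0.900 to 0.941 in single replicates, 1.03 with 36-mers, 0.831 for single-copy summits, 1.08 away from gene starts and 0.236 for the strongest 6000. In pericentric sequence they were 0.982 to 1.11 in single replicates, 0.442 for the strongest 6000 and 0.883 within 1.5 Mb of the boundary. On chromosome 4 they were 1.08 to 1.13 in single replicates, 1.36 with 36-mers, 1.19 for single-copy summits, 1.37 away from gene starts and 0.635 for the strongest 6000. Except for the boundary shift, the cause of these moves was not tested. No paired analysis was possible because the 2 samples form 1 group.

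Read depth, the input and the caller's handling of reads that match several places are unknown, so few regions in a family of near-identical copies cannot be told apart from few placeable reads. Signal orders regions within a list, and lists were set side by side by position only. The annotation holds few elements deep in pericentric sequence.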
